A study of Mus musculus with 16 samples.

Results

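The comparison of high-fat diet with low-fat diet liver rests on 8 of the 16 RNA libraries of the series, the 4 that the labels call HFD control and the 4 that they call chow control, and on the 18335 of 50559 gene symbols that passed a filter on low counts. All mice were male C57BL/6J, 6 weeks of age at the start, and were fed a 60% high-fat diet (HFD) or a low-fat diet (LFD, the chow of the labels) for 10 weeks. Over the last 4 weeks both groups were given siRNA against luciferase at 10 mg/kg, repeated after 2 weeks, and were gavaged with methylcellulose 2 times a day, so the controls carried these treatments as well. The other 8 libraries, from HFD mice treated against ketohexokinase, entered the filter on low counts, the scaling and the shared estimate of the spread. Mice of the study were injected with saline or insulin shortly before tissue was taken, and the labels do not say which mouse received which. The labels number the replicates and say no more of cages or days of collection, so the p-values measure the spread between these libraries.

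The liver stores and exports lipid, makes most plasma proteins, clears drugs and bile acids, and keeps a daily rhythm of metabolism. Diet-induced obesity loads hepatocytes with triglyceride, and it is known to alter P450 expression, insulin signalling and the activity of resident macrophages. In rodents many hepatic P450s, serpins and urinary proteins are also set by the sex-dependent pattern of growth hormone pulses, which act through the transcription factor STAT5B.

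The LFD libraries held 25572883 to 35125005 expected counts (median 28920038) and the HFD libraries 24317111 to 35820234 (median 26714482). Levels are given as CPM (counts scaled to the TMM-normalized library total), in the order of replicates 1 to 4. A gene was called when its adjusted p was under 0.05 in the quasi-likelihood test of edgeR (adjusted by Benjamini and Hochberg over all 18335 genes). The hepatocyte markers were abundant in all libraries, with albumin (Alb) at 67430, 53050, 55440 and 52980 CPM in the LFD libraries and 54080, 42760, 52890 and 54190 CPM in the HFD libraries. The sum of 11 hepatocyte markers was 109200, 96120, 98290 and 95560 CPM in LFD and 93670, 76760, 91110 and 92740 CPM in HFD, lower in every HFD library, and 3 of the 11 were called lower (5 by DESeq2, 1 without LFD replicate 3, and 1 after the correction for GC content described next).

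The groups differed in 3 features of the libraries. The mRNAs encoded by the mitochondrial genome took 2.21, 3.48, 3.03 and 5.63% of the counts in LFD and 6.78, 5.65, 10.4 and 7.7% in HFD, higher in all 4 HFD libraries (two-sided exact permutation test, p = 0.0286, the smallest that 4 libraries against 4 allow, and 0.0477 after adjustment over 5 measures). The 10 most abundant genes took 29.1, 22.6, 25.7 and 22.5% in LFD and 21, 19.8, 19.3 and 20.8% in HFD (p = 0.0286 in the same exact test). Levels also followed the GC content of transcripts in different ways, with a Spearman rho of 0.562, -0.104, 0.636 and -0.0929 in LFD and -0.298, -0.206, -0.549 and -0.45 in HFD over 8228 genes (p = 0.0286 in the same exact test). LFD replicates 1 and 3 thus stood apart from replicates 2 and 4, and across those genes, which are not independent, the log2 fold changes had a Spearman rho of -0.516 with GC content. Counts of the main gene groups are therefore given again after each library's trend with GC and length of transcripts had been removed, which was chosen with this trend known and covers 15858 of the tested genes. Leaving out single libraries moved many counts as well, and the range of the number called over the 8 such fits is given beside a group where it spread by more than 1.5 times.

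**Figure D1:**
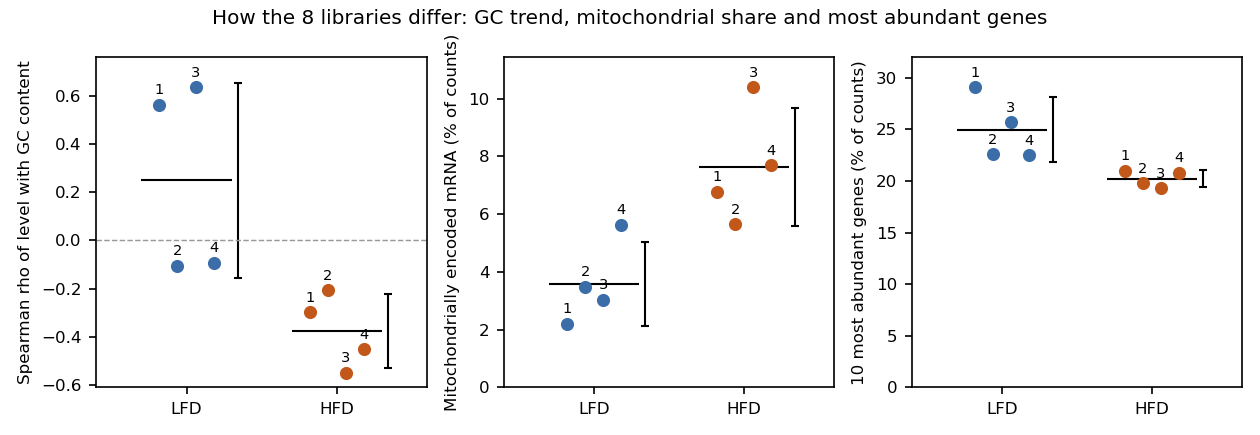
GC trend (Spearman rho of centred log2 CPM with transcript GC content), share of mitochondrially encoded mRNA and share of the 10 most abundant genes (both in % of counts) in each library, with replicate numbers above the points, a line at the mean and a bar of 1 SD beside it. LFD replicates 1 and 3 lie at 0.562 and 0.636 in the GC trend, and the mitochondrial share is at most 5.63% in LFD and at least 5.65% in HFD.

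In HFD, 1757 genes were higher (9.58% of those tested) and 1613 lower (8.8%) than in LFD, together 18.4% of the tested genes. The percent of a list that was called is read against these 18.4%, and corrected counts are its members higher and lower after the GC and length correction. The CPM of the groups did not overlap in 20.4% of the genes, 10.7% with all HFD libraries above and 9.69% with all below. Most changes were small, with a median absolute log2 fold change of 0.60 among the called genes, and 800 genes changed at least 2-fold, 457 of them upward and 343 downward. After this GC and length correction 1401 genes (8.83%) were higher and 1184 (7.47%) lower. Of the 3084 called genes that the correction covered, 1879 kept their call and direction and 1 was called in the opposite direction, the actin-capping gene Capza2 (0.32 before and -0.19 after), named after its values were seen. Of the 274 called genes printed here that it covered, 51 were not called after it, namely Ahcy, Akt1, Apoa1, Atp6v0d2, Bmp6, C1ra, Ccr2, Cfb, Cry1, Cyp2a12, Cyp2d11, Cyp2d22, Dpp4, Ebp, F2, F9, Foxo4, G6pdx, Gbp7, Gsta2, Gstm7, Haao, Hlf, Ifi44, Ifit2, Ifit3b, Igf1, Kdsr, Klf6, Lipa, Lrp1, Mcm4, Nags, Nfe2l2, Plg, Ppp1r15a, Prlr, Sdsl, Serpina1c, Serpinf2, Serping1, Slc10a2, Slc27a5, Spp1, Sptlc2, Sult1d1, Tff3, Tmprss6, Ugcg, Ugp2 and Uqcr10. Of the 279 called genes printed, 118 were not called in at least 1 of the 8 fits with 1 library left out, from 23 without LFD replicate 4 to 95 without LFD replicate 3. The median log2 fold change of all tested genes was -0.011. In bulk tissue, fewer cells of a type and less RNA per cell cannot be told apart.

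**Figure D2:**
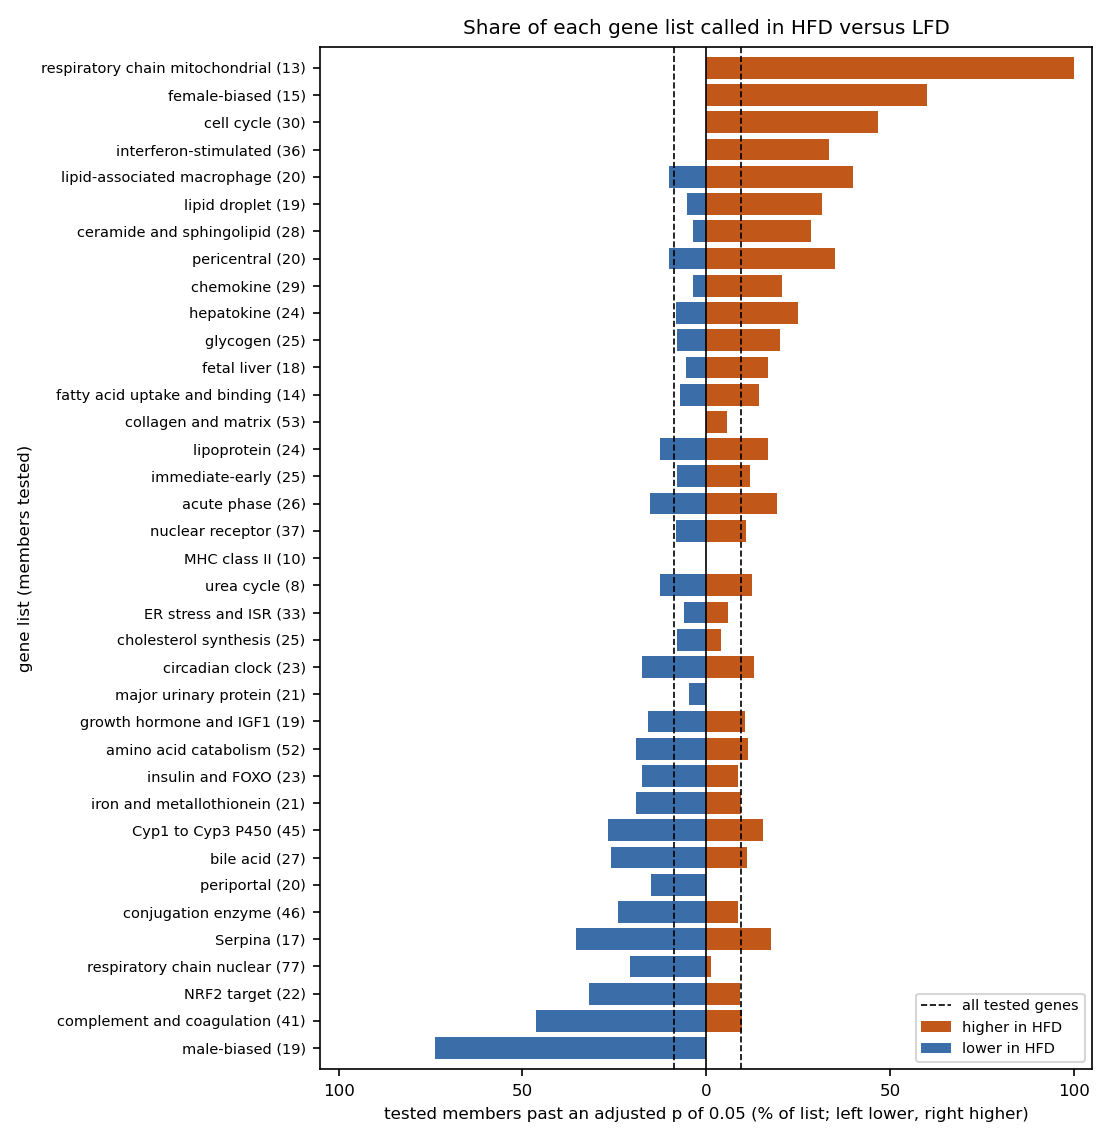
Percent of the tested members of each gene list that were called higher (right) or lower (left) in HFD, with dashed lines at the 9.58% higher and 8.8% lower over all tested genes. The male-biased list lies farthest to the lower side with 73.7% and the mitochondrially encoded, female-biased and cell cycle lists reach 100%, 60% and 46.7% on the higher side.

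Among named genes of at least 1 log2 CPM on average whose groups did not overlap, the largest increase was that of Cyp2b9, a P450 of female-biased expression, which had 0.0838, 1, 0.418 and 0.791 CPM in the LFD libraries and 104, 39.9, 199 and 119 CPM in the HFD libraries. LFD replicate 1 held only 2 counts of it, and the groups lay far apart (log2 fold change 7.61, SE 0.94, adjusted p = 0.000109). Next came Cyp2a22 (5.18), the organic anion transporter family genes Slc22a27 (4.74) and Slc22a29 (4.32), the neurotrophin receptor Ntrk2 (4.05), the actin-bundling protein Pls1 (3.501), the peroxisomal thioesterase Acot3 (3.40), the hepcidin paralogue Hamp2 (3.23), the lipid droplet protein Cidec (3.04), the class I gene H2-Q1 (2.99), the apolipoprotein Apoa4 (2.93) and the lysophospholipid transporter Mfsd2a (2.61, all as log2 fold changes). Slc22a27 and Slc22a29 each share 30.5% of their 50-base words with other genes, mostly with each other, so that their reads can be divided between them. Adjusted p-values of these 12 genes were at most 0.00144. Lack of overlap was a condition for these genes and for the largest decreases. Where it is stated for them below, it follows from that choice.

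The largest decrease among named genes was that of the serpin pseudogene Serpina4-ps1, with 66.2, 23.9, 97.5 and 64.3 CPM in the LFD libraries and 7.46, 3.6, 1.14 and 0.821 CPM in the HFD libraries (log2 fold change -4.25, SE 0.99, adjusted p = 0.00842). Among the other large decreases were the small nucleolar and Cajal body RNAs Snora70, Snord3a, Scarna3a, Snord3b4 and Snora68, which guide the modification and processing of ribosomal and spliceosomal RNA, with log2 fold changes from -3.47 to -2.81. Snora70 had 17.6, 12.9, 2.51 and 4.84 CPM in the LFD libraries and 0.961, 1.28, 0.0759 and 0.977 CPM in the HFD libraries. Its whole sequence stands within transcripts of Rpl10, so that host and guide RNA cannot be told apart there. Other decreases were those of the fatty acid binding protein Fabp5, the homeobox factor Pitx3, the disintegrin-like protein Adam11, the citrate and dicarboxylate transporter Slc13a2, the antitrypsin paralogue Serpina1e and the adhesion receptor Adgrf1, with log2 fold changes between -2.999 and -2.74. Slc13a2 had 7.8, 6.16, 7.02 and 5.87 CPM in the LFD libraries and 0.961, 0.925, 0.721 and 1.02 CPM in the HFD libraries (log2 fold change -2.88, SE 0.34, adjusted p = 7.94e-05).

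Most of the genes listed as higher in male than in female mouse liver fell in HFD, and 9 of the 24 genes listed as higher in females rose. Both lists were chosen with earlier results of these data known, so their counts are no independent test. Of 19 male-biased genes, 14 were lower (73.7%, against 8.8% of all tested genes) and 0 higher. Their median log2 fold change was -1.54, and all 19 values were below 0. With 1 library left out 8 to 14 were called, fewest without HFD replicate 3. Of 24 female-biased genes 15 passed the filter on low counts. Of these, 9 were higher (60%, against 9.58% of all tested genes) and 0 lower, with a median of 1.56. Of the 9 untested, 4 had at most 3 counts in all 8 libraries. Members without counts in LFD, such as Cyp2b13, passed the filter only through libraries of HFD mice. The filter can therefore raise the share of tested female-biased genes that were higher and their median. After this GC and length correction the counts were 14 lower and 9 higher. With LFD replicates 1 and 3 left out, a fit chosen after seeing the data in which 469 genes were higher and 357 lower, 2 male-biased and 5 female-biased genes were called.

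Among the male-biased genes, Hsd3b5, a ketosteroid reductase, had 168, 116, 199 and 155 CPM in the LFD libraries and 32.6, 57.2, 7.06 and 14.3 CPM in the HFD libraries. The highest HFD value, in replicate 2, was under all LFD values (log2 fold change -2.51, SE 0.71, adjusted p = 0.0224). Elovl3, a fatty acid elongase, had 341, 349, 389 and 240 CPM in the LFD libraries and 73.1, 145, 49 and 23 CPM in the HFD libraries (log2 fold change -2.18, SE 0.48, adjusted p = 0.00608), again with no overlap. Selenbp2 had 547, 155, 380.4 and 169 CPM in the LFD libraries and 59, 127, 21.4 and 28.5 CPM in the HFD libraries, and 52% of its 50-base words stand in Selenbp1 as well (log2 fold change -2.41, SE 0.71, adjusted p = 0.0273). Its call was lost in 5 of the 8 fits with 1 library left out (log2 fold change -1.99 and adjusted p = 0.0863 without LFD replicate 1). Serpina1e, of the antitrypsin family, had the highest CPM of the list, with 10920, 3155, 5106 and 3885 CPM in the LFD libraries and 586, 1901, 315 and 413 CPM in the HFD libraries (log2 fold change -2.84, SE 0.79, adjusted p = 0.0207). HFD replicate 2 was the highest of its group, and no HFD value reached the LFD range. Ugt2b38 (-3.83), Cspg5 (-2.47), Cyp4a12b (-1.98), Egfr (-1.58), Cyp4a12a (-1.54), C8b (-1.22), C6 (-1.17), Nudt7 (-0.999), Cyp7b1 (-0.96) and Susd4 (-0.86) were the other members called. Slco1a1, a male-biased organic anion transporter, was at a log2 fold change of -0.09 (adjusted p = 0.859) and Cyp2d9 at -0.20 (adjusted p = 0.523).

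Several female-biased genes were near 0 in LFD. Cyp2b13 had 0 counts in the 4 LFD libraries and 64, 18, 67 and 26 in the HFD libraries, at least 14.6-fold higher when the LFD libraries are set at 3 counts each. Hao2, a hydroxyacid oxidase, had 0, 2, 2 and 5 counts in LFD and 226, 73, 300 and 185 in HFD (log2 fold change 6.41, SE 1.09, adjusted p = 0.00128). Cyp2a4, a steroid hydroxylase, had 26, 0, 4 and 5 counts in LFD and 240, 627, 394 and 364 in HFD (log2 fold change 5.402, SE 1.29, adjusted p = 0.00986). Cyp2a4 shares 38% of its words with other genes, mostly with Cyp2a5. Ntrk2 had 2.43, 1.04, 0.777 and 0.923 CPM in the LFD libraries and 19.8, 28.4, 20.8 and 14.7 CPM in the HFD libraries (log2 fold change 4.05, SE 0.62, adjusted p = 0.000663). Acot3 had 1.55, 3.15, 3.64 and 1.81 CPM in the LFD libraries and 9.15, 17.4, 38.1 and 43.9 CPM in the HFD libraries (log2 fold change 3.40, SE 0.49, adjusted p = 0.000414), and neither gene overlapped between the groups. Cyp17a1, a steroid hydroxylase and lyase, had 18.7, 9.17, 8.96 and 10.2 CPM in the LFD libraries and 26.3, 18.8, 51.3 and 54 CPM in the HFD libraries, where the lowest HFD value of 18.8 CPM lay next to the highest LFD value of 18.7 CPM (log2 fold change 1.68, SE 0.56, adjusted p = 0.0454). Rtn4 (0.82) and Abcd2 (1.56) rose as well, whereas Fmo2 was at 0.75 (adjusted p = 0.0541) and Cyp2b10 at -1.32 (adjusted p = 0.0946). Within HFD, replicate 2 had the highest level in 10 of the 14 called male-biased genes. Of the 9 called female-biased genes it had the lowest level in 4 (Cyp2b9, Cyp2b13, Hao2 and Cyp17a1) and the highest in 3 (Ntrk2, Rtn4 and Cyp2a4).

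**Figure D3:**
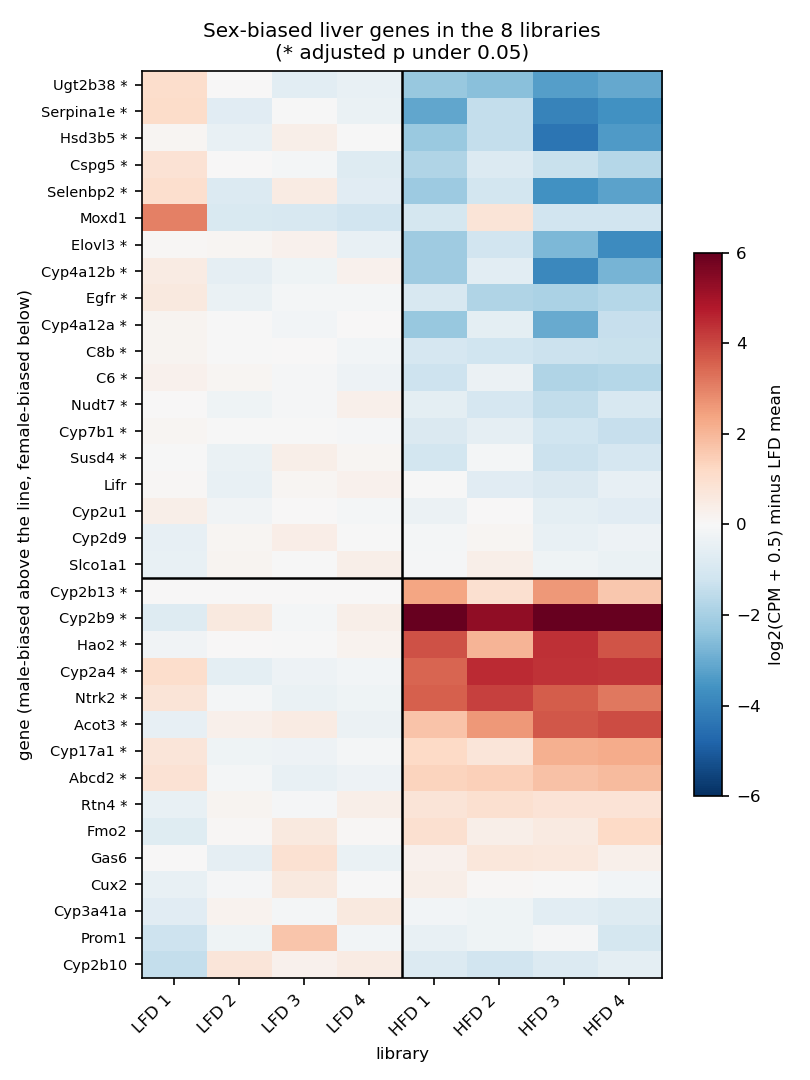
Levels of the tested male-biased (above the line) and female-biased genes (below) in the 8 libraries, as log2(CPM + 0.5) minus the LFD mean, with called genes marked by an asterisk. The HFD columns are below the LFD mean for the called male-biased genes and above it for the called female-biased genes, and HFD replicate 2 has paler colours for many male-biased genes.

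Of 19 genes of the growth hormone and IGF1 axis, 2 were higher and 3 lower (26.3% called, corrected 1 and 3). Igfbp2, an IGF-binding protein, had 328, 269, 490.1 and 266 CPM in the LFD libraries and 125, 40.9, 83.6 and 109.9 CPM in the HFD libraries (log2 fold change -1.91, SE 0.29, adjusted p = 0.000631), and every HFD value was under the LFD values. Stat5b, the factor that carries the growth hormone signal, fell (log2 fold change -0.53, SE 0.12, adjusted p = 0.00641), while Igf1 (log2 fold change 0.57, SE 0.12, adjusted p = 0.00448) and the prolactin receptor Prlr (log2 fold change 0.91, SE 0.20, adjusted p = 0.00621) rose. The rises of Igf1 and Prlr were not called after this correction (log2 fold changes 0.17, adjusted p = 0.381, and 0.60, adjusted p = 0.0629), and their transcripts hold 38% and 39.4% GC. The growth hormone receptor Ghr was at 0.30 (adjusted p = 0.0577), and the STAT5 targets Socs2 and Cish were at -1.53 (adjusted p = 0.131) and -1.31 (adjusted p = 0.357). Of 21 major urinary protein genes, pheromone carriers driven by growth hormone pulses, 1 was called (1 to 4 with 1 library left out, most without HFD replicate 2, and 0 by edgeR without LFD replicates 1 and 3). This was Mup20, with 4005, 4232, 3189 and 2902 CPM in the LFD libraries and 1510, 2261, 1228 and 1120 CPM in the HFD libraries (log2 fold change -1.23, SE 0.29, adjusted p = 0.00835). It shares 50.5% of its words with other genes of the family, most other members share nearly all of theirs, and the summed level of the 21 genes was 21950, 25830, 27540 and 30440 CPM in LFD and 18030, 32510, 16290 and 18690 CPM in HFD, where replicate 2 was the highest.

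The Cyp1, Cyp2 and Cyp3 families, which oxidize drugs, steroids and fatty acids, changed in both directions. Of 61 genes 45 were tested, 7 were higher and 12 lower (42.2% called), and the median log2 fold change was -0.20 (13 to 20 with 1 library left out, fewest without HFD replicate 3). After the correction the counts were 7 and 13. Cyp3a11, the main inducible Cyp3a enzyme of mouse liver, had 1983, 3978, 2286 and 3002 CPM in the LFD libraries and 1388, 1111, 1211 and 1053 CPM in the HFD libraries (log2 fold change -1.24, SE 0.23, adjusted p = 0.00245). Cyp2f2, a lung and periportal liver enzyme, had 954, 875, 1066 and 931 CPM in the LFD libraries and 408, 331, 389.8 and 347 CPM in the HFD libraries (log2 fold change -1.37, SE 0.18, adjusted p = 0.000172). In both the groups did not overlap. Cyp2c55 (-1.38), Cyp2c54 (-1.23), Cyp2c23 (-1.08), Cyp2d11 (-1.03), Cyp2c67 (-0.91), Cyp1a2 (-0.70), Cyp2c70 (-0.54) and Cyp2d22 (-0.34) also fell, as did Cyp2c69 (-3.30) and Cyp2c40 (-2.92), which share 54.8% and 72.1% of their words with relatives. Cyp2c67, Cyp2d11 and Cyp2c54 share 52.8%, 37.2% and 25.7% of theirs with other genes. Cyp2e1, an ethanol and ketone oxidase with the highest CPM of the list, had 1949, 3931, 3719 and 4530 CPM in the LFD libraries and 5901, 3929, 5114 and 6191 CPM in the HFD libraries, and the groups overlapped (log2 fold change 0.58, SE 0.21, adjusted p = 0.0676).

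Upward, Cyp2a22 had 0.335, 1.33, 0.896 and 2.27 CPM in the LFD libraries and 43.1, 20.6, 57.7 and 57.5 CPM in the HFD libraries (log2 fold change 5.18, SE 0.64, adjusted p = 0.000109), and 20.5% of its words also stand in Cyp2a12. Cyp2c38, an epoxygenase, had 16, 31.3, 21.3 and 30.6 CPM in the LFD libraries and 61.5, 59.9, 107 and 98.6 CPM in the HFD libraries (log2 fold change 1.72, SE 0.27, adjusted p = 0.000761). Cyp2c39 (2.15) and Cyp2a12 (0.30) rose as well, beside the female-biased Cyp2b9, Cyp2b13 and Cyp2a4. Cyp2a12 lost its call after the correction (log2 fold change 0.25, adjusted p = 0.0664). Cyp2b10, the classical target of the receptor CAR, was low in all libraries, with 0.671, 4.73, 3.26 and 3.99 CPM in the LFD libraries and 1.29, 0.95, 1.29 and 1.6 CPM in the HFD libraries. Its groups overlapped (log2 fold change -1.32, SE 0.53, adjusted p = 0.0946).

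Enzymes that conjugate drugs and metabolites with glutathione, glucuronide or sulfate changed in both directions. Of 46 tested genes 4 were higher and 11 lower (32.6% called, and 8 to 15 with 1 library left out, fewest without HFD replicate 4), and after the correction 5 and 15. Ugt2b38, Ugt2b37 (-1.57) and Ugt2b35 (-0.49) of the glucuronosyltransferases fell, and the other members that fell were glutathione S-transferases. The calls of Ugt2b37 and Ugt2b35 were lost in 7 and 5 of the 8 fits with 1 library left out. Ugt2b38 and Ugt2b37 share 37.4% and 18.3% of their words with other genes. Gstp1, with the highest CPM of the list, had 2023, 1348, 1583 and 1080 CPM in the LFD libraries and 543, 754, 388 and 421 CPM in the HFD libraries (log2 fold change -1.52, SE 0.26, adjusted p = 0.00133), without overlap. Gstp2 had 56.2, 49.9, 51.3 and 33.8 CPM in the LFD libraries and 15.8, 15.1, 6.45 and 13 CPM in the HFD libraries (log2 fold change -1.92, SE 0.39, adjusted p = 0.00404), also without overlap, and 62.3% of the words of Gstp1 also stand in other genes, mostly in Gstp2. Gsta2, Gsta4, Gstm1, Gstm4, Gstm7 and Gsto1 also fell, with log2 fold changes from -1.46 for Gsta2 to -0.38 for Gstm7. Gstm2 (0.78), Gstz1 (0.29) and the sulfotransferases Sult1a1 (0.58) and Sult1d1 (0.98) rose, though the call of Sult1d1, whose transcript holds 32.9% GC, was lost after the correction (adjusted p = 0.0795).

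The NRF2 targets, a set of antioxidant genes that shares Gstp1, Gsta2 and Gstm1 with the list before, had 2 members higher and 7 lower of 22 (40.9% called, corrected 1 and 6, and 5 to 9 with 1 library left out, fewest without HFD replicate 3). Besides these 3 transferases, the members that fell were the efflux pump Abcc4 (-0.69), the pentose phosphate enzyme G6pdx (-0.65), epoxide hydrolase Ephx1 (-0.60) and glutathione reductase Gsr (-0.58). Nqo1 and Hmox1, the targets used most often as readouts of NRF2, were at 0.36 (adjusted p = 0.187) and -0.08 (adjusted p = 0.766). Sulfiredoxin (Srxn1) rose (log2 fold change 0.34, SE 0.11, adjusted p = 0.0452), but its call was lost in 4 of the 8 fits with 1 library left out (0.225, edgeR adjusted p = 0.149, without HFD replicate 2). Nfe2l2, which encodes NRF2 itself, had 60.2, 57.3, 52.1 and 47.8 CPM in the LFD libraries and 55.2, 76.8, 81.2 and 64.3 CPM in the HFD libraries, and it rose although its groups overlapped (log2 fold change 0.35, SE 0.12, adjusted p = 0.0454).

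Bile acid genes had 3 members higher and 7 lower of 27 (37% called, corrected 2 and 7, and 5 to 9 with 1 library left out, fewest without HFD replicate 3). Cyp7a1, the rate-limiting enzyme of the classical route, was at 216, 36, 64.5 and 109 CPM in the LFD libraries and 47.9, 114, 140.2 and 204 CPM in the HFD libraries, with a spread within LFD that covered the HFD values (log2 fold change 0.25, SE 0.52, adjusted p = 0.78). Cyp27a1 and Cyp7b1, of the alternative route, both fell without overlap. Cyp27a1, a sterol hydroxylase, had 416, 406, 491 and 374 CPM in the LFD libraries and 303, 289.6, 248 and 292 CPM in the HFD libraries (log2 fold change -0.57, SE 0.13, adjusted p = 0.00694). Cyp7b1, an oxysterol hydroxylase, had 171, 155, 153 and 151 CPM in the LFD libraries and 86, 109.7, 67.8 and 59.6 CPM in the HFD libraries (log2 fold change -0.96, SE 0.32, adjusted p = 0.046). The call of Cyp7b1 was lost in 7 of the 8 fits with 1 library left out (log2 fold change -0.84 and edgeR adjusted p = 0.128 without HFD replicate 4). Cyp2c70, which makes muricholic acids in mice, had 323, 333, 311 and 299 CPM in the LFD libraries and 267, 160.3, 219.8 and 220.5 CPM in the HFD libraries (log2 fold change -0.54, SE 0.17, adjusted p = 0.0315), and no HFD library reached the LFD range. Of the transporters, the canalicular bile salt export pump Abcb11 had 745, 1029, 812 and 902 CPM in the LFD libraries and 697, 564, 647 and 644 CPM in the HFD libraries (log2 fold change -0.45, SE 0.11, adjusted p = 0.013), without overlap. The efflux pumps Abcc3 (-0.53) and Abcc4 and the bile acid CoA ligase Slc27a5 (-0.47) also fell. The phospholipid flippase Abcb4 rose, with 173, 255, 231 and 221 CPM in the LFD libraries and 304, 373, 333 and 296 CPM in the HFD libraries (log2 fold change 0.57, SE 0.11, adjusted p = 0.00337), and the groups did not overlap. Akr1d1, a steroid reductase of bile acid synthesis, rose (log2 fold change 0.74, SE 0.15, adjusted p = 0.00355). Slc10a2, the apical bile acid transporter of cholangiocytes, rose as well (log2 fold change 1.19, SE 0.39, adjusted p = 0.0414), but its call was lost after the correction (log2 fold change 0.62, adjusted p = 0.304).

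Cholesterol synthesis and its SREBP2-controlled genes showed few calls. Of 25 members 1 was higher and 2 were lower (12% called, corrected 2 and 1, and 1 to 4 with 1 library left out, fewest without HFD replicate 4). DESeq2 called 5 of the 25, and edgeR with a replicate block called 5. Insig1, which retains SREBPs in the endoplasmic reticulum, had 303, 439.6, 364 and 342 CPM in the LFD libraries and 426, 612, 577 and 456 CPM in the HFD libraries (log2 fold change 0.52, SE 0.17, adjusted p = 0.0451), where LFD replicate 2 lay above the lowest HFD library. Tm7sf2, a sterol reductase, had 98.4, 68.2, 101.2 and 88.9 CPM in the LFD libraries and 53.1, 63.2, 46.9 and 59.97 CPM in the HFD libraries (log2 fold change -0.68, SE 0.14, adjusted p = 0.00433), without overlap, and the sterol isomerase Ebp fell as well (-0.30). Sqle, the squalene epoxidase, was at -0.19 (adjusted p = 0.744). The letters TCACNCCAC, which describe a sterol element, were searched on both strands of the RefSeq promoters (GRCm38.p6, 250 bases before to 50 bases after the start). They stood in 1 of 17 members with a promoter (5.88%), Hmgcs1, in 1.44% of all 27025 genes with a promoter (1.24% of 32851 promoters), and in none of the 3 called members.

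Several lipid droplet genes rose. Of 19 members 6 were higher and 1 was lower (36.8% called), with a median log2 fold change of 0.28, and after the correction 8 and 1. Cidec, which fuses droplets, had 1.34, 0.43, 1.02 and 1.02 CPM in the LFD libraries and 3.94, 15.2, 6.87 and 4.85 CPM in the HFD libraries (log2 fold change 3.04, SE 0.41, adjusted p = 0.000261). Its relative Cidea had 2, 0, 0 and 0 counts in LFD and 8, 48, 4 and 5 in HFD, at least 4.38-fold higher with LFD at 3 counts per library. This bound rests largely on HFD replicate 2, and Cidea was not called without that library (edgeR adjusted p = 0.0858) or without LFD replicate 3 (0.0625). Neither gene overlapped between the groups, and HFD replicate 2 was the highest in both. G0s2, an inhibitor of triglyceride lipase, had 55.4, 39, 34.4 and 32.3 CPM in the LFD libraries and 66.7, 71.8, 111 and 68.4 CPM in the HFD libraries (log2 fold change 0.98, SE 0.23, adjusted p = 0.00807). Mgll, which cleaves monoglycerides, had 91.3, 99.6, 118 and 94.7 CPM in the LFD libraries and 161, 201, 179 and 164 CPM in the HFD libraries (log2 fold change 0.80, SE 0.14, adjusted p = 0.00125). Fitm1 (0.80) and Plin4 (0.71) rose too, while Plin2, the main coat protein, was at 271, 352, 366 and 247 CPM in the LFD libraries and 334, 463, 390 and 361 CPM in the HFD libraries, with overlapping groups (log2 fold change 0.32, SE 0.15, adjusted p = 0.145), and was called after the correction (0.42, adjusted p = 0.0468). The seipin gene Bscl2 fell (log2 fold change -0.38, SE 0.12, adjusted p = 0.0304).

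Of 14 genes of fatty acid uptake and binding, edgeR called Cd36, Fabp2 and Fabp5 (21.4%, near that of all genes by edgeR), and DESeq2 called 6. After the correction 4 were higher and 1 lower, with Fabp1 and Got2 added. The fatty acid translocase Cd36 had 23.6, 37.6, 19.4 and 45.7 CPM in the LFD libraries and 94.7, 107, 119 and 114 CPM in the HFD libraries (log2 fold change 1.78, SE 0.22, adjusted p = 9.48e-05). The intestinal-type binding protein Fabp2 had 25.8, 34.2, 25.4 and 28.5 CPM in the LFD libraries and 70.8, 83.1, 86.6 and 88.9 CPM in the HFD libraries (log2 fold change 1.53, SE 0.13, adjusted p = 5.19e-06), and both genes were far from overlap. Fabp5, an epidermal and macrophage form, went the other way, with 75.4, 14.8, 16.9 and 17.3 CPM in the LFD libraries and 4.08, 5.19, 3.22 and 2.85 CPM in the HFD libraries (log2 fold change -2.999, SE 0.56, adjusted p = 0.00241), where LFD replicate 1 was far above the other LFD libraries. Fabp1, the liver form with the highest CPM of the list, was at 0.42 (adjusted p = 0.182) before and 0.70 (adjusted p = 0.017) after the correction. Lipoprotein genes had 4 members higher and 3 lower of 24 (29.2% called, corrected 5 and 1, and 4 to 7 with 1 library left out, fewest without LFD replicate 3). Apoa4, an apolipoprotein of chylomicrons and VLDL, had 84.1, 92.5, 100.6 and 81.6 CPM in the LFD libraries and 488, 1150, 642 and 448 CPM in the HFD libraries (log2 fold change 2.93, SE 0.23, adjusted p = 3.43e-06). Endothelial lipase Lipg (1.53), the lipoprotein lipase cofactor Apoc2 (0.86) and Apon (0.29) rose. The sphingosine-1-phosphate carrier Apom fell, with 173, 145, 184 and 132 CPM in the LFD libraries and 82.8, 80.8, 61.8 and 78.5 CPM in the HFD libraries (log2 fold change -1.06, SE 0.14, adjusted p = 0.000249). The groups of Apoa4 and of Apom did not overlap. Apoa1 (-0.50), of HDL, and the remnant receptor Lrp1 (-0.38) fell before but not after the correction (adjusted p = 0.4 and 0.352). Apoe, of remnant particles, was at -0.04 (adjusted p = 0.871). Apoc2 shares 88.2% of its words with an overlapping gene model.

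Ceramide and sphingolipid genes had 8 members higher and 1 lower of 28 (32.1% called, and 5 to 12 with 1 library left out, fewest without LFD replicate 3). Cers6, the synthase of C16 ceramides, had 24.6, 28.6, 24.3 and 30.1 CPM in the LFD libraries and 37.1, 47.7, 48.1 and 53.4 CPM in the HFD libraries (log2 fold change 0.79, SE 0.15, adjusted p = 0.00288), with no overlap. Sptlc1, Sptlc2 and Kdsr, of the first steps of synthesis, rose by log2 fold changes of 0.30, 0.30 and 0.33. The sphingomyelin synthase Sgms1 (0.67), ceramidase Asah2 (0.68), Sgpp1 (0.43) and Ugcg (0.41) rose as well. The sphingosine phosphate lyase Sgpl1 fell (log2 fold change -0.31, SE 0.09, adjusted p = 0.0302), and Cers2, the synthase with the highest CPM, was at 0.09 (adjusted p = 0.565). After the correction 5 members were higher and 1 lower. Glycogen genes had 5 higher and 2 lower of 25 (28% called, corrected 3 and 2, and 4 to 8 with 1 library left out, fewest without HFD replicate 4). Ugp2, which makes UDP-glucose, had 150.4, 287, 221 and 360 CPM in the LFD libraries and 400, 384, 429 and 472 CPM in the HFD libraries (log2 fold change 0.73, SE 0.20, adjusted p = 0.0191), but was not called after the correction (adjusted p = 0.0677). Laforin (Epm2a, 0.81), a glycogen phosphatase, its partner Nhlrc1 (0.99) and the kinase subunit Phka2 (0.29) were among those that rose. Brain-type phosphorylase Pygb (-0.71) and lysosomal glucosidase Gaa (-0.49) fell, and Pygl, the liver phosphorylase, was at -0.16 (adjusted p = 0.277).

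Of 23 clock genes 3 were higher and 4 lower (30.4% called, corrected 2 and 4). The number called was 10 without LFD replicate 4, 1 without LFD replicate 3 and 0 by edgeR without LFD replicates 1 and 3. The period genes Per3 and Per2, repressors of the BMAL1 complex, rose. Per3 had 4.53, 6.2, 3.52 and 13.4 CPM in the LFD libraries and 18.6, 12.9, 20.8 and 48 CPM in the HFD libraries (log2 fold change 1.85, SE 0.58, adjusted p = 0.0344), where LFD replicate 4 lay among the HFD libraries. Per2 had 13.5, 8.99, 8.93 and 15.3 CPM in the LFD libraries and 20.6, 25.1, 24.1 and 32.9 CPM in the HFD libraries (log2 fold change 1.14, SE 0.28, adjusted p = 0.0124), without overlap. Npas2, a partner of BMAL1, fell, with 5.32, 9.39, 12.6 and 4.22 CPM in the LFD libraries and 2.68, 3.44, 2.01 and 0.821 CPM in the HFD libraries (log2 fold change -1.79, SE 0.55, adjusted p = 0.033), where LFD replicate 4 was closest to the HFD libraries. Nfil3, a repressor of D-box genes, fell (log2 fold change -1.21, SE 0.32, adjusted p = 0.017), as did Cry1 (log2 fold change -1.07, SE 0.35, adjusted p = 0.0408), and in both only LFD replicate 4 lay within the HFD range. The kinase gene Csnk1d fell too (log2 fold change -0.35, SE 0.09, adjusted p = 0.0171). The D-box activator Hlf rose (log2 fold change 0.47, SE 0.16, adjusted p = 0.0475), and its relatives Tef and Dbp were at 0.83 (adjusted p = 0.0952) and 1.77 (adjusted p = 0.153). The gene Arntl, which encodes BMAL1, was at 26.7, 30.1, 36.5 and 14.7 CPM in the LFD libraries and 12.2, 17.1, 11.2 and 5.04 CPM in the HFD libraries (log2 fold change -1.23, SE 0.49, adjusted p = 0.0906). The hour at which each liver was taken is not given in the sources used here, so that a shift in rhythm and a shift in hour cannot be told apart.

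Clock motifs were searched on both strands of the same RefSeq promoters (GRCm38.p6). The E-box CACGTG, bound by BMAL1 complexes, stood in 5 of 19 clock members with a promoter (26.3%) and in 8.09% of all 27025 genes with a promoter (7.15% of 32851 promoters), and the D-box TTATGTAA, bound by HLF, DBP, TEF and NFIL3, stood in 1 of 19 (5.26%) and in 1.11% of genes (0.938% of promoters). Of the called members, Per3 and Cry1 held a match, and their promoters are shown with the matches in capitals, from 5′ to 3′ on the strand of the gene. Per3 (chr4:151044616-151044915, minus strand) holds the D-box letters from positions -205 and -158 relative to the start, and Cry1 (chr10:85185005-85185304, minus strand) holds the E-box from position -60.
Per3: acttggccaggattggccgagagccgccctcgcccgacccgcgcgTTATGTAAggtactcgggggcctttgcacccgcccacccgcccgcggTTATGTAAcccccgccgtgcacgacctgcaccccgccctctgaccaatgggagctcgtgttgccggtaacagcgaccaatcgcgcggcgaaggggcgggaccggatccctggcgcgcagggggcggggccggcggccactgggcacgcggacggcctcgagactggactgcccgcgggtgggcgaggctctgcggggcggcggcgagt
Cry1: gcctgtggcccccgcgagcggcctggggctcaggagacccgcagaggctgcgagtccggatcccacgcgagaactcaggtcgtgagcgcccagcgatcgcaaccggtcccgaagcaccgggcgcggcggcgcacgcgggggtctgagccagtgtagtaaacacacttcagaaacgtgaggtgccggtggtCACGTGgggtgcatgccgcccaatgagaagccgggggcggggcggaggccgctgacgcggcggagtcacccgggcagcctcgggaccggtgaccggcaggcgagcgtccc
A match describes the letters in this window and not a bound site.

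Insulin-responsive genes had 2 members higher and 4 lower of 23 (26.1% called, corrected 3 and 2). Irs2, an insulin receptor substrate repressed by insulin, had 58.6, 67.1, 129 and 76 CPM in the LFD libraries and 39, 27.9, 38.4 and 52.1 CPM in the HFD libraries (log2 fold change -1.07, SE 0.23, adjusted p = 0.00579), without overlap. Igfbp1, a FOXO1 target, had 47.3, 104, 345 and 81.5 CPM in the LFD libraries and 38.9, 59.2, 39.5 and 48.3 CPM in the HFD libraries (log2 fold change -1.64, SE 0.47, adjusted p = 0.0234), and LFD replicate 3 was the highest in both genes. Without that library Igfbp1 was at -0.73 (edgeR adjusted p = 0.148). Pik3r1, a regulatory subunit of PI3 kinase, rose (log2 fold change 0.48, SE 0.13, adjusted p = 0.0159), as did Sesn3 (0.48), while Akt1 (-0.45) and Foxo4 (-0.30) fell before but not after the correction (adjusted p = 0.159 and 0.38), and Pck1 and G6pc, the gluconeogenic genes, were at -0.17 (adjusted p = 0.622) and -0.73 (adjusted p = 0.0918). Of 25 immediate-early genes, which respond to stimuli within minutes, edgeR called 3 higher and 2 lower, 20% and near the background, whereas DESeq2 called 8. The corrected counts were 2 and 2, and 1 to 7 were called with 1 library left out, fewest without HFD replicate 3. Egr1 had 59.7, 55.4, 228 and 13.9 CPM in the LFD libraries and 24, 18.3, 22.7 and 22.4 CPM in the HFD libraries (log2 fold change -2.03, SE 0.61, adjusted p = 0.0299). Ier2 had 24.8, 21.5, 50.1 and 19.1 CPM in the LFD libraries and 17.6, 16.6, 14.7 and 15.5 CPM in the HFD libraries (log2 fold change -0.84, SE 0.25, adjusted p = 0.027). LFD replicate 3 was again the highest, and without it neither was called (Egr1 -0.97, edgeR adjusted p = 0.21, and Ier2 -0.43, adjusted p = 0.115), while Fos was at -1.57 (adjusted p = 0.155). Gadd45a rose (log2 fold change 1.22, SE 0.32, adjusted p = 0.0149), as did Egr2 (1.24) and Klf6 (0.56), which was not called after the correction (adjusted p = 0.176). Saline or insulin had been injected before tissue was taken, and the part of this in either list was not tested. With LFD replicate 3 left out, 4 insulin-responsive and 2 immediate-early genes were called.

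Some of the interferon-stimulated genes, the antiviral programme, rose in HFD. Of 36 members 12 were higher and 0 lower, 34 had a log2 fold change above 0, and the median was 0.43 (10 higher and a median of 0.52 after the correction). The antiviral gene Ifit1 had 3.27, 5.2, 4.3 and 4.42 CPM in the LFD libraries and 6.26, 13.6, 9.67 and 13.9 CPM in the HFD libraries (log2 fold change 1.33, SE 0.23, adjusted p = 0.00137). Viperin (Rsad2) had 7.63, 8.71, 7.05 and 7.84 CPM in the LFD libraries and 9.71, 23.7, 15.9 and 17.1 CPM in the HFD libraries (log2 fold change 1.09, SE 0.22, adjusted p = 0.00337), and neither overlapped. Ifi44 (0.98), Ifit3b (0.76), Gbp7 (0.73), Oasl2 (0.70), Ifit2 (0.70), Oasl1 (0.70), Usp18 (0.66), Xaf1 (0.65), Ifih1 (0.53) and Ddx58 (0.35) were the other members called. Ifit3b shares 45% of its words with other genes, mostly with Ifit3. The number called was 15 without LFD replicate 2, 5 without HFD replicate 4, 6 without LFD replicate 1, 6 without LFD replicate 3 and 3 without both of the last.

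Chemokine ligands and receptors had 6 members higher and 1 lower of 29 tested (24.1% called, corrected 6 and 2, and 2 to 7 with 1 library left out, fewest without LFD replicate 3). Cxcl10, an interferon-induced attractant of T cells, had 1.64, 1.9, 1.2 and 2.37 CPM in the LFD libraries and 4.01, 5.32, 5.5 and 6.68 CPM in the HFD libraries (log2 fold change 1.596, SE 0.24, adjusted p = 0.000532), without overlap. The monocyte attractant Ccl2 had 0.335, 0.573, 0.209 and 0.264 CPM in the LFD libraries and 0.762, 0.95, 0.569 and 0.938 CPM in the HFD libraries (log2 fold change 1.23, SE 0.37, adjusted p = 0.0305), with a single LFD value at the foot of the HFD range. Cxcl11 (1.28), Cx3cr1 (1.19), Ccr2 (0.93) and Ccl6 (0.65) rose as well, all at low levels, and Ccl9 fell, with 44.6, 39.8, 39.6 and 43.3 CPM in the LFD libraries and 24.7, 21.3, 23.6 and 26.3 CPM in the HFD libraries (log2 fold change -0.81, SE 0.13, adjusted p = 0.000933). No MHC class II gene of 10 was called by edgeR, the invariant chain Cd74 being at -0.33 (adjusted p = 0.36). At an unadjusted p under 0.05 edgeR counted 0 of them, DESeq2 called 0, and edgeR called 1 without LFD replicate 2.

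Lipid-associated macrophage genes, which mark phagocytes around lipid-laden hepatocytes, had 8 members higher and 2 lower of 20 (50% called, and 5 to 8 with 1 library left out, fewest without LFD replicate 1), and 6 and 2 after the correction. The elastase Mmp12 had 0.168, 0.215, 0.0896 and 0.231 CPM in the LFD libraries and 2.62, 3.9, 2.88 and 2.81 CPM in the HFD libraries (log2 fold change 4.11, SE 0.32, adjusted p = 2.88e-06). Galectin 1 (Lgals1) had 9.56, 6.66, 6.54 and 8.87 CPM in the LFD libraries and 17.5, 22.7, 18.9 and 17.3 CPM in the HFD libraries (log2 fold change 1.28, SE 0.15, adjusted p = 8.88e-05). The fungal receptor Clec7a had 1.55, 6.02, 1.76 and 3.3 CPM in the LFD libraries and 7.56, 7.94, 6.98 and 9.03 CPM in the HFD libraries (log2 fold change 1.32, SE 0.29, adjusted p = 0.00651). In all 3 the HFD libraries lay above the LFD libraries. Gpnmb (1.604), Atp6v0d2 (1.15), Spp1 (0.62), Lgals3 (0.62) and Lipa (0.29) rose, of which Atp6v0d2, Spp1 and Lipa were not called after the correction (adjusted p = 0.106, 0.0745 and 0.533). The tetraspanin Cd9 fell, with 16.4, 16, 16 and 13.1 CPM in the LFD libraries and 6.5, 8.22, 6.11 and 5.9 CPM in the HFD libraries (log2 fold change -1.20, SE 0.12, adjusted p = 3.26e-05), and so did Fabp5. Trem2, the receptor that names these cells, was at 1.15 (adjusted p = 0.122) with 15, 10, 9 and 3 counts in LFD and 27, 47, 6 and 14 in HFD. Of 14 markers of resident Kupffer cells and macrophages edgeR called none before the correction (2 at an unadjusted p under 0.05, and 0 by DESeq2) and 1 higher after it, Cd68 (0.48, adjusted p = 0.0281). Their sum was 403, 597, 445 and 462 CPM in LFD and 459, 448, 416 and 510.2 CPM in HFD, with overlap, and Clec4f, the marker with the highest CPM, was at -0.13 (adjusted p = 0.498). The part of macrophage number in these values was not tested. Of 53 collagens, metalloproteinases, inhibitors and crosslinking enzymes tested 5.66% were called, against 18.4% of all genes (3 to 5 called with 1 library left out, most without LFD replicate 3). These were Mmp12, Mmp13 (2.86) and Mmp19 (log2 fold change 0.59, SE 0.10, adjusted p = 0.00121), all higher. After the correction 5 were higher and 1, the protease inhibitor Timp3, was lower. The fibrillar collagen Col3a1 was at 0.18 (adjusted p = 0.546).

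Many genes of the complement and coagulation cascades, most of them secreted by hepatocytes, fell and a few rose. Of 41 complement and coagulation genes 4 were higher and 19 lower (46.3% lower, against 8.8% of all genes), with a median log2 fold change of -0.28 (14 to 24 with 1 library left out, fewest without LFD replicate 1). After the correction 4 were higher and 15 lower. C8b, a subunit of the membrane attack complex, had 295, 255, 269 and 232 CPM in the LFD libraries and 128, 115, 106 and 103 CPM in the HFD libraries (log2 fold change -1.22, SE 0.19, adjusted p = 0.00083). C8a had 757, 691, 594 and 593 CPM in the LFD libraries and 390.1, 454, 325 and 331 CPM in the HFD libraries (log2 fold change -0.81, SE 0.14, adjusted p = 0.00136). For C6 the levels were 270.3, 249, 216 and 184 CPM in the LFD libraries and 95.1, 178, 64.3 and 69.3 CPM in the HFD libraries (log2 fold change -1.17, SE 0.33, adjusted p = 0.0217). In these 3 genes of the complex no HFD library reached the LFD range, and HFD replicate 2 was closest in C8a and C6. The central component C3 had 8605, 7798, 8553 and 6957 CPM in the LFD libraries and 6080, 4681, 5315 and 5284 CPM in the HFD libraries (log2 fold change -0.58, SE 0.12, adjusted p = 0.00351), with every HFD value under the LFD values. C2 (-0.92), C9 (-0.64), Hc (-0.46), Mbl1 (-0.48), C1ra (-0.37), Cfb (-0.33) and Serping1 (-0.29) of the complement system fell, and so did F7 (-0.54), F10 (-0.38), F2 (-0.35), Kng1 (-0.47), Plg (-0.29), Serpinc1 (-0.40), Serpinf2 (-0.37) and Vtn (-0.51) of coagulation. Among the members that rose were F8 (0.63), F9 (0.48) and Cfd (2.29), which is made mainly by adipocytes and had 0.293, 0.0358, 1.1 and 0.659 CPM in the LFD libraries and 1.79, 6.7, 0.797 and 1.06 CPM in the HFD libraries (log2 fold change 1.15 without HFD replicate 2, edgeR adjusted p = 0.219). C2 and Cfb share 58% and 81.4% of their words with an overlapping gene model. With LFD replicates 1 and 3 left out, 3 of the list were called.

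Of 26 acute phase genes 5 were higher and 4 lower (34.6% called, corrected 5 and 6, and 4 to 10 with 1 library left out, fewest without HFD replicate 4). Lipocalin 2 (Lcn2) had 1.59, 1.9, 1.7 and 2.37 CPM in the LFD libraries and 7.85, 12.3, 4.44 and 5.51 CPM in the HFD libraries (log2 fold change 1.995, SE 0.41, adjusted p = 0.00416), without overlap, and the interleukin 1 receptor antagonist Il1rn rose (log2 fold change 1.36, SE 0.36, adjusted p = 0.0176), both at low levels. The classical reactants Saa1 and Crp were at -0.40 (adjusted p = 0.593) and 0.06 (adjusted p = 0.716), and Crp was lower after the correction (-0.25, adjusted p = 0.0468). Serpina3k, a kallikrein inhibitor, had 6628, 6797, 6697 and 5853 CPM in the LFD libraries and 3574, 4044, 2723 and 2623 CPM in the HFD libraries (log2 fold change -1.002, SE 0.25, adjusted p = 0.012), and Orm1 (-0.75) and the fibrinogen chains Fga (-0.49) and Fgg (-0.51) fell. Saa4 (0.48), Serpina3n (0.48) and Serpina3m (0.56) rose. In the Serpina family 3 of 17 tested members rose and 6 fell (52.9% called, corrected 3 and 5). Serpina6, which encodes corticosteroid-binding globulin, had 154, 113, 96.6 and 108 CPM in the LFD libraries and 212, 139, 307 and 334 CPM in the HFD libraries (log2 fold change 1.07, SE 0.23, adjusted p = 0.00566), and the antitrypsins Serpina1a (-0.54) and Serpina1c (-0.44), which share most of their words, and Serpina11 (-0.77) and Serpina9 (-3.09) fell beside Serpina1e and Serpina3k. Serpina9 was near the floor in HFD, with 0.464 CPM in replicate 1 and 0.0257 to 0.0391 CPM in the other HFD libraries.

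Some of the cell cycle genes rose, at low levels. Of 30 members 14 were higher and 0 lower (16 and 0 after the correction), with a median log2 fold change of 0.75. Mki67, a marker of cycling cells, had 3.9, 4.05, 1.97 and 3.56 CPM in the LFD libraries and 7.09, 13.9, 15.5 and 6.8 CPM in the HFD libraries (log2 fold change 1.69, SE 0.28, adjusted p = 0.00121). Top2a, the mitotic topoisomerase, had 1.01, 1.58, 0.836 and 1.48 CPM in the LFD libraries and 3.21, 5.27, 5.77 and 2.42 CPM in the HFD libraries (log2 fold change 1.77, SE 0.33, adjusted p = 0.00217), and both genes were higher in every HFD library. Ccnb1, the mitotic cyclin B1, had 10, 4, 1 and 5 counts in LFD and 31, 54, 46 and 27 in HFD (log2 fold change 2.84, SE 0.54, adjusted p = 0.00251). Cdc20 (2.52), Bub1 (2.16), Ccne2 (2.07), Ccnb2 (2.05), Ccna2 (1.85), Birc5 (1.83), Foxm1 (1.78), Plk1 (1.69) and Cdk1 (1.43) rose too, beside the replication helicase subunits Mcm6 (0.99) and Mcm4 (0.46). HFD replicates 2 and 3 had the highest Mki67, and 10 members were called without LFD replicates 1 and 3. Ccnd1, with the highest CPM of the list, was at 0.75 (adjusted p = 0.131). Of 18 fetal liver genes 3 were higher and 1 lower (22.2% called, corrected 3 and 0, and 2 to 5 with 1 library left out, fewest without LFD replicate 1). Gpc1, a heparan sulfate proteoglycan, rose (log2 fold change 2.54, SE 0.25, adjusted p = 2.13e-05), as did the imprinted Mest (0.56), and alpha-fetoprotein (Afp) was at 0.56 (adjusted p = 0.154). Tff3 was called lower (log2 fold change -3.81, SE 1.24, adjusted p = 0.0413) through a single high value of 70.5 CPM in LFD replicate 1, and without that library its log2 fold change was 0.029 (edgeR adjusted p = 0.986). The imprinted RNA H19, chosen after its values were seen, had 3, 5, 15 and 5 counts in LFD and 1170, 120, 218 and 387 in HFD (log2 fold change 6.07, SE 0.85, adjusted p = 0.000331).

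**Figure D4:**
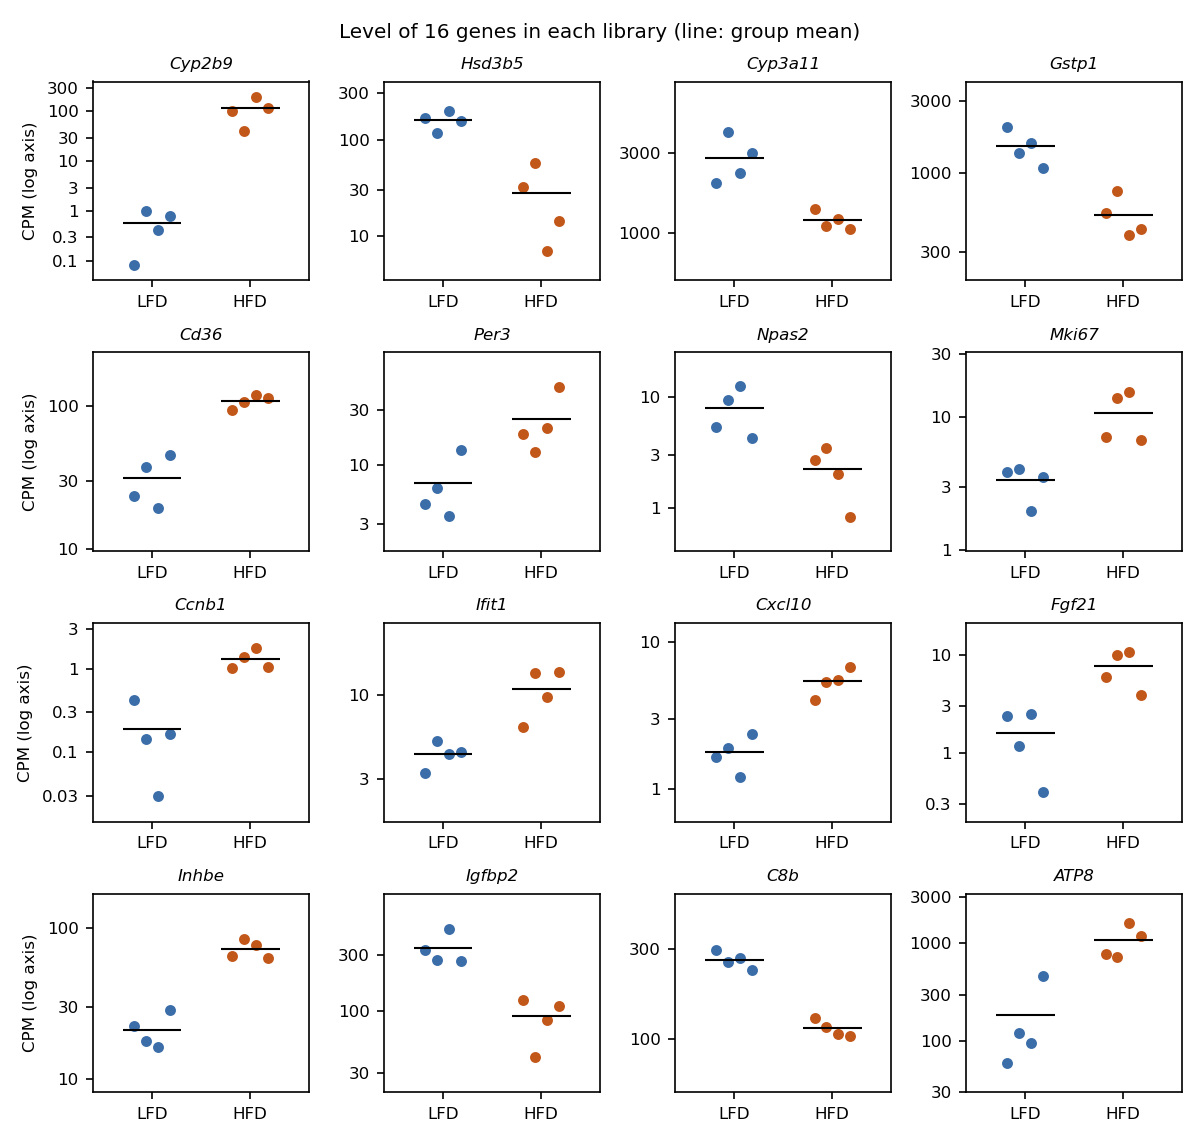
CPM (log axis) of 16 genes in each LFD and HFD library, with a line at the group mean. The groups overlap in none of them but Per3, where LFD replicate 4 (13.4 CPM) lies above the lowest HFD library (12.9 CPM). The 16 genes were picked from those described in the text, with results of these data known. Over all tested genes the groups did not overlap in 20.4%.

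Hepatocytes differ by their place between portal and central vein. Of 20 pericentral genes 7 were higher and 2 lower, with 18 values above 0 and a median log2 fold change of 0.53 (10 higher and 2 lower after the correction). Of 20 periportal genes 0 were higher and 3 lower, with 18 values below 0, a median of -0.32 and 15% called, corrected 0 and 4. DESeq2 called 5 of these 20. Glutamine synthetase (Glul), confined to the last hepatocytes before the central vein, had 431, 716, 711 and 838 CPM in the LFD libraries and 1559, 1738, 1525 and 1518 CPM in the HFD libraries (log2 fold change 1.23, SE 0.23, adjusted p = 0.00243). Ornithine aminotransferase (Oat) had 454, 364, 302 and 574 CPM in the LFD libraries and 969, 965, 999 and 1276 CPM in the HFD libraries (log2 fold change 1.31, SE 0.25, adjusted p = 0.00256). The dicarboxylate transporter Slc13a3 had 10.3, 8.74, 10.1 and 11.9 CPM in the LFD libraries and 38.3, 41.6, 29.9 and 26.9 CPM in the HFD libraries (log2 fold change 1.74, SE 0.22, adjusted p = 0.000145). These genes did not overlap between the groups, and neither did Lect2, a secreted protein, with 30.6, 40.7, 35.9 and 52.1 CPM in the LFD libraries and 126, 109, 126 and 129 CPM in the HFD libraries (log2 fold change 1.62, SE 0.18, adjusted p = 5.63e-05). The glutamate transporter Slc1a2 (1.11), Slc1a4 (1.45) and Gulo (0.52), of vitamin C synthesis, rose as well. The WNT targets Axin2 and Lgr5 were at 0.08 (adjusted p = 0.838) and 0.53 (adjusted p = 0.138), and Cyp1a2 (-0.70) and Cyp27a1 (-0.57) fell. The periportal genes called were Cyp2f2, Mup20 and Hal. Of the urea cycle, a periportal pathway, Nags fell (log2 fold change -0.55, SE 0.18, adjusted p = 0.0453) and Slc25a13 rose (log2 fold change 0.32, SE 0.10, adjusted p = 0.0299), and the pathway had 25% called, corrected 1 and 0, and 0 to 2 with 1 library left out, fewest without LFD replicate 1. Nags was not called after the correction (adjusted p = 0.0853). Cps1, the first enzyme of the cycle, was at 5582, 5832, 5171 and 6101 CPM in the LFD libraries and 4881, 3674, 4321 and 4759 CPM in the HFD libraries (log2 fold change -0.36, SE 0.14, adjusted p = 0.0845).

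Amino acid catabolism had 6 members higher and 10 lower of 52 (30.8% called, corrected 10 and 8, and 9 to 16 with 1 library left out, fewest without LFD replicate 3). Csad, which makes taurine precursors from cysteine, had 584, 300.2, 349 and 212 CPM in the LFD libraries and 52.6, 124, 57.5 and 42 CPM in the HFD libraries (log2 fold change -2.38, SE 0.37, adjusted p = 0.000672), without overlap. Mat1a, which makes S-adenosylmethionine, had 1699, 1869, 1974 and 2069 CPM in the LFD libraries and 2835, 2754, 3083 and 3347 CPM in the HFD libraries (log2 fold change 0.66, SE 0.13, adjusted p = 0.00287), again without overlap. Glud1 (0.44), Agxt2 (0.57), Bckdhb (0.31) and Gstz1 (0.29) rose beside Oat. The histidine enzymes Hal (-0.78) and Amdhd1 (-0.58), the tryptophan enzymes Acmsd (-1.10), Afmid (-0.64) and Haao (-0.26), the transsulfuration enzyme Cbs (-0.67), and Ahcy (-0.42), Sdsl (-1.11) and Ddc (-0.77) fell. Afmid and Ahcy share 62.5% and 77% of their words with gene models or pseudogenes.

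Of 24 hepatokines 6 were higher and 2 lower (33.3% called, corrected 5 and 2). Fgf21, a hormone of the fed and fasted liver, had 2.35, 1.18, 2.48 and 0.396 CPM in the LFD libraries and 5.96, 10.1, 10.6 and 3.91 CPM in the HFD libraries (log2 fold change 2.26, SE 0.49, adjusted p = 0.00577). Inhbe, which encodes activin E, had 22.4, 17.7, 16.2 and 28.5 CPM in the LFD libraries and 65.1, 85, 78.1 and 63.3 CPM in the HFD libraries (log2 fold change 1.78, SE 0.18, adjusted p = 3e-05), and both genes were higher in every HFD library. Inhbc (0.48), Dpp4 (0.36) and Selenop (0.54) rose beside Lect2. Fetub, a fetuin, fell, with 340.4, 284, 404 and 298 CPM in the LFD libraries and 161, 140.2, 159 and 164 CPM in the HFD libraries (log2 fold change -1.09, SE 0.13, adjusted p = 8.25e-05), without overlap, and so did Igfbp2, given above. Gdf15, Angptl4 and Angptl8 were at 0.36 (adjusted p = 0.639), -0.82 (adjusted p = 0.179) and 0.79 (adjusted p = 0.334). Iron genes had 2 members higher and 4 lower of 21 (28.6% called, corrected 1 and 2). Hamp2 had 9.52, 9.89, 14.4 and 15.8 CPM in the LFD libraries and 122.7, 39.3, 144 and 162 CPM in the HFD libraries (log2 fold change 3.23, SE 0.47, adjusted p = 0.000438), and its groups did not overlap. Hepcidin itself, Hamp, was at 679, 92.7, 109.7 and 157 CPM in the LFD libraries and 182, 72.2, 181 and 184 CPM in the HFD libraries (log2 fold change -0.75, SE 0.49, adjusted p = 0.309), with overlap and a single high value in LFD replicate 1. Of the words of Hamp2, 15.5% also stand in Hamp. Hjv, a co-receptor for hepcidin regulation, rose (log2 fold change 0.39, SE 0.09, adjusted p = 0.00831), and the iron transporter Slc11a2 fell (log2 fold change -0.47, SE 0.14, adjusted p = 0.0257). Bmp6 (-0.69), Tfr2 (-0.60) and Tmprss6 (-0.41), which set hepcidin levels, fell, though Bmp6 and Tmprss6 were not called after the correction (adjusted p = 0.0525 and 0.116).

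The 13 mRNAs of the mitochondrial genome were all called higher, with log2 fold changes from 0.66 to 2.55, though without LFD replicates 1 and 3 edgeR called 2 of them. With all 8 libraries 16 of 77 nuclear genes of the respiratory chain were lower and 1 higher, with a median of -0.23. This was 22.1% called, near the 18.4% of all genes, and 20.8% lower, against 8.8% of all genes. ATP8 had 59.9, 120.2, 95.3 and 464 CPM in the LFD libraries and 788, 724, 1611 and 1194 CPM in the HFD libraries (log2 fold change 2.55, SE 0.51, adjusted p = 0.00359), with LFD replicate 4 closest to the HFD libraries. COX1, with the highest CPM of them, had 8203, 11430, 11150 and 17620 CPM in the LFD libraries and 17380, 14450, 26050 and 18820 CPM in the HFD libraries (log2 fold change 0.66, SE 0.22, adjusted p = 0.049), with LFD replicate 4 among the HFD libraries. Summed over the 13, the level was 23660, 33830, 31750 and 56980 CPM in LFD and 64140, 52010, 97800 and 73220 CPM in HFD. The mitochondrial genes have no value in this correction. Of the nuclear genes, the complex III subunit Uqcr10 had 76.5, 58.6, 83 and 64.4 CPM in the LFD libraries and 46, 40.04, 34.5 and 46.9 CPM in the HFD libraries (log2 fold change -0.75, SE 0.15, adjusted p = 0.00333), without overlap. Uqcr10 was not called after the correction (log2 fold change -0.26, edgeR adjusted p = 0.123). The ATP synthase subunit Atp5b had 923, 848, 932 and 805 CPM in the LFD libraries and 704, 697, 653 and 712 CPM in the HFD libraries (log2 fold change -0.34, SE 0.10, adjusted p = 0.0236), also without overlap. Uqcrb was the one nuclear gene that rose (0.55), and its call was lost in 6 of the 8 fits with 1 library left out. After the correction 8 nuclear genes were lower and 5 higher, with a median of -0.08, and 5 to 20 with 1 library left out, fewest without LFD replicate 3. The part of GC content in these values was not tested beyond this correction. Leaving the mitochondrial genes out before scaling, an alternative chosen after seeing the data, gave 1747 genes higher and 1607 lower.

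**Figure D5:**
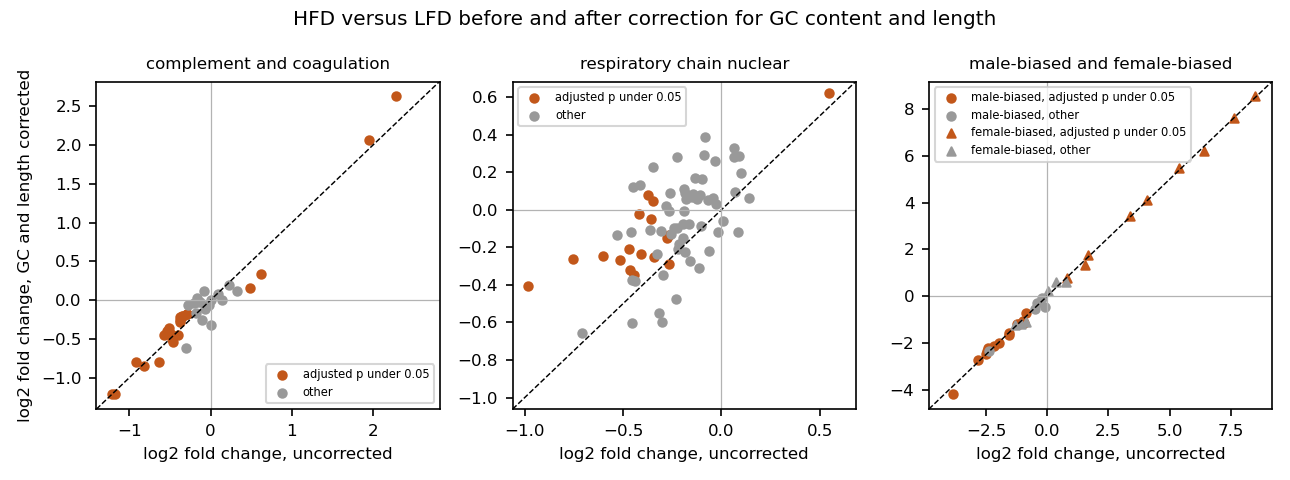
Log2 fold change (HFD minus LFD) before (horizontal axis) and after (vertical axis) the GC and length correction, with genes called before it in orange. The dashed line marks equal values. Medians before and after were -1.54 and -1.58 for male-biased, 1.56 and 1.31 for female-biased, -0.28 and -0.18 for complement and coagulation and -0.23 and -0.08 for nuclear respiratory chain genes.

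Nuclear receptors had 4 members higher and 3 lower of 37, near the background (18.9% called, corrected 4 and 4, and 5 to 11 with 1 library left out, fewest without LFD replicate 1). Ppara, the receptor for fatty acids that drives their oxidation, had 246, 311, 250.2 and 284 CPM in the LFD libraries and 429.9, 392, 484 and 605 CPM in the HFD libraries (log2 fold change 0.81, SE 0.13, adjusted p = 0.000757). Pparg, of adipogenesis, had 6.71, 7.95, 8.24 and 8.24 CPM in the LFD libraries and 11.3, 10.8, 12.5 and 11.1 CPM in the HFD libraries (log2 fold change 0.55, SE 0.11, adjusted p = 0.00426), and neither gene overlapped. Esrrg (log2 fold change 1.504, SE 0.35, adjusted p = 0.00868) and Rxrg (log2 fold change 0.63, SE 0.16, adjusted p = 0.013) rose, and Nr1h2 (-0.48), which encodes LXRβ, Nr2c1 (-0.34) and Nr2c2 (-0.33) fell. The genes Nr1h4, Nr1i2 and Hnf4a, which encode FXR, PXR and HNF4α, were at 0.10 (adjusted p = 0.4), -0.22 (adjusted p = 0.0903) and -0.19 (adjusted p = 0.147). Of 33 genes of the unfolded protein and integrated stress responses 12.1% were called, against 18.4% of all genes (corrected 2 and 1, and 3 to 5 called with 1 library left out). Of these, Ddit4 (0.99) and the serine synthesis enzyme Psat1 (1.39) rose. The stress sensor Ern1 fell, with 117, 100.4, 155 and 137 CPM in the LFD libraries and 91.7, 80.3, 77.4 and 77.5 CPM in the HFD libraries (log2 fold change -0.64, SE 0.12, adjusted p = 0.00212), and Ppp1r15a fell too (-0.52). The chaperone Hspa5 was at 706, 870.2, 382 and 590.2 CPM in the LFD libraries and 559, 878, 499 and 412 CPM in the HFD libraries (log2 fold change -0.12, SE 0.34, adjusted p = 0.844).

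Markers of lymphocytes (6.67% called), monocytes and neutrophils (14.3%), stellate cells (7.69%) and endothelial cells (8.33%) lay under the 18.4% of all genes. Cholangiocyte markers were near that share (20% of 10 tested) and adipocyte markers above it (40% of 5 tested). Of 15 lymphocyte markers Ighm rose (log2 fold change 1.46, SE 0.42, adjusted p = 0.0255), with 6.96, 6.23, 2.84 and 5.21 CPM in the LFD libraries and 8.35, 28.7, 11.4 and 9.58 CPM in the HFD libraries, where HFD replicate 2 stood far above the rest. Ighm was not called without HFD replicate 2 (0.885, edgeR adjusted p = 0.113) or without LFD replicate 3 (1.258, adjusted p = 0.0825). The sum of the list was 16.3, 15.8, 8.99 and 15 CPM in LFD and 16.6, 40.3, 17.7 and 18.3 CPM in HFD. Of 7 monocyte and neutrophil markers tested Ccr2 was called, and the sum stayed between 7.71 and 11.2 CPM in all 8 libraries. Of 13 stellate cell markers Reln rose (log2 fold change 0.38, SE 0.10, adjusted p = 0.0167), the sum was 464, 479, 572 and 450.4 CPM in LFD and 633, 514, 519.6 and 554 CPM in HFD, and Acta2, a marker of their activation, was at -1.95 (adjusted p = 0.0652). Of 12 endothelial markers Stab1 fell (log2 fold change -0.49, SE 0.12, adjusted p = 0.0114) and the sum was 552, 586, 616 and 523 CPM in LFD and 493, 447, 467 and 514 CPM in HFD. Cholangiocyte markers had 2 of 10 called, Spp1 and Krt23 (log2 fold change 1.43, SE 0.48, adjusted p = 0.0465), while Krt19 was at -2.60 (adjusted p = 0.0945) and the sum was 133, 136, 203 and 132 CPM in LFD and 151, 132, 125 and 115 CPM in HFD. Adipocyte markers had Cfd and Cidea called of 5 tested, while Adipoq, Plin1, Retn, Lep and Ucp1 did not pass the filter, and Car3, which made up most of the sum (3052, 3856, 3030 and 3261 CPM in LFD and 2429, 2637, 3486 and 2832 CPM in HFD), was at -0.26 (adjusted p = 0.317). Of the 14 pancreas markers only Cela1 was tested (log2 fold change 0.66, SE 0.18, adjusted p = 0.0185) and 10 were at 3 counts or fewer in all 8 libraries. Of 6 erythroid markers edgeR called none (0 at an unadjusted p under 0.05, and 0 by DESeq2). Leaving out single libraries gave at most 3 calls in any of these marker lists. The part of changes in cell makeup in the gene groups above was not tested.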

How the data were processed

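Liver RNA of 16 libraries was deposited as 1 table of expected counts per gene. Per the labels, the authors' processing notes name STAR, RSEM and the mm39 genome, and the methods of the study name a probe-based panel (HTG EdgeSeq), so the assay behind the table is not settled by the sources used here. Of the deposited expected counts 15.1% were not whole, and they were rounded. Versions, annotation and strand setting are not given in the sources used here.

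Genes were kept by filterByExpr (minimum count 10, minimum total 15) over 4 groups of 4, scaled by TMM and tested with edgeR 4.0.16 in R 4.3.3 (glmQLFit and glmQLFTest, 1 fit over all 16 libraries), with Benjamini-Hochberg adjustment over 18335 genes and a threshold of 0.05. Total counts were 24317111 to 35820234 per library, so genes of a few counts are imprecise. Floors of 3 counts cover counting error only. GC content and transcript length were taken from the reference annotation for 86.5% of the tested genes. Their trends, fitted in each library with natural splines of 5 degrees of freedom over genes averaging a log2 CPM of 3 or more, were entered as offsets. Members and gene lists were chosen with earlier results of these data known. Named genes were the 12 largest increases and 12 largest decreases averaging a log2 CPM of 1 or more without overlap, and in each list up to 4 called members per direction and the member with the highest LFD mean. Other list members, 126 of the 331 genes printed, were added after their values were seen. A few list members are counted but not reported here by name. Shared sequence is the percent of a gene's 50-base words found in transcripts of other genes. Promoters are from RefSeq (GRCm38.p6), a build other than mm39, and were used for sequence only. DESeq2 1.42.0, other scalings and filters, a replicate block and leaving out libraries were the alternatives. The methods were tested on simulated data, where a simulated GC trend gave more false calls without the correction than with it. No pair of libraries of a group agreed within sampling noise.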

Additional observations from a re-analysis of the deposited data

Results flagged for a closer look

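Of 690 groups of 4 libraries examined, 43 held a library whose gap to the rest was over Dixon's limit for 4 samples, and chance flags about 1 in 20 groups. No explanation was weighed for any of them.

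In LFD replicate 1, high values were found for Alb (67400 CPM against at most 55400 in the other LFD libraries), Fabp5 (75.4 against 17.3), Hamp (679 against 157), Tff3 (70.5 against 2.72), Ccnd1 (36.3 against 12.4), Cyp17a1 (18.7 against 10.2), Abcc4 (6.54 against 4.58), Ntrk2 (2.43 against 1.04), Cyp2a4 (1.09 against 0.165) and Cidea (0.0838 CPM, which is 2 counts, against 0). In LFD replicate 2, Xaf1 was high (6.16 against 3.89 CPM). In LFD replicate 3, Krt19 was high (14.2 against 1.81 CPM), as were H19 (0.448 against 0.179) and the sum of the cholangiocyte markers (203 against 136). LFD replicate 4 was high for ATP8 (464 against 120 CPM) and for mitochondrial ribosomal RNA (0.147% of counts against 0.0125%), and low for C2 (84.1 against at least 98.4 CPM), Cfb (862 against 1030), Kng1 (1380 against 1500), Cd9 (13.1 against 16) and Sgpl1 (80.8 against 93.4).

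In HFD replicate 1, Egfr (462 against at most 277 CPM), Socs2 (20.6 against 5.55) and Serpina9 (0.464 against 0.0391) were high. HFD replicate 2 was low for Alb (42800 against at least 52900 CPM), the sum of the hepatocyte markers (76800 against 91100), Kng1 (887 against 1100) and Hamp (72.2 against 181). It was high for Serpina1e (1900 against 586 CPM), Sqle (96.5 against 56.5), Gstm4 (32.9 against 25.6), Ighm (28.7 against 11.4), the sum of the lymphocyte markers (40.3 against 18.3), Cfd (6.7 against 1.79), Nhlrc1 (2.03 against 1.41) and Cidea (1.23 against 0.265). HFD replicate 3 was high for G0s2 (111 against 71.8 CPM), Sgpp1 (84.5 against 72.3) and F9 (164 against 156), and low for Rpl10 (196 against 233) and the sum of the monocyte and neutrophil markers (8.23 against 10.9). HFD replicate 4 was high for Oat (1280 against 999 CPM) and Gbp7 (35.4 against 25.2).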

How the results depend on the processing

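The main counts were 1757 genes higher and 1613 lower. They stayed within 1.5 times of these under DESeq2 (1945 and 1902), RLE scaling (1735 and 1644), no filter (1515 and 1233), a stricter filter (1677 and 1441), the GC and length correction and the fit without the mitochondrial genes. With only the 8 libraries compared, a fit that estimates the spread from these alone, 1167 genes were higher and 1129 lower. At an adjusted p under 0.01 the counts were 704 and 583, and when a 2-fold change was also required they were 457 and 343. Without LFD replicates 1 and 3, chosen after seeing the data, they were 469 and 357. Leaving out 1 library gave 1098 to 1996 genes higher and 912 to 1824 lower, with 1098 and 912 without LFD replicate 3, and the numbers higher were also low without LFD replicate 1 (1193), HFD replicate 3 (1101) and HFD replicate 4 (1198). The cause was not tested.

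The replicate numbers did not pair the libraries. Same-numbered libraries had correlations of -0.0196, -0.0847, -0.031 and 0.11 between their deviations, and 1 of the 4 LFD libraries correlated best with its own number. With a replicate block, 1718 genes were higher and 1581 lower, and with the block and the GC and length correction 1424 and 1222.

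Among the genes printed, the log2 fold changes that turned sign were of genes not called, except Tff3 and Capza2. Under the GC and length correction these were Apoe (0.227), Crp (-0.251), Cyp7a1 (-0.142), Hmox1 (0.053) and Capza2 (-0.191). With the block added to the correction they were Apoe (0.222), Crp (-0.25), Hmox1 (0.071), Hamp (0.086), Pck1 (0.001) and Capza2 (-0.191). Without LFD replicates 1 and 3 they were Apoe (0.246), Crp (-0.01), Hmox1 (0.047), Hamp (0.318), Saa1 (0.119) and Tff3 (1.328). Over the fits that left out 1 library, the range was -0.133 to 0.061 for Apoe, -0.005 to 0.116 for Crp, -0.081 to 0.864 for Cyp7a1, -0.157 to 0.091 for Hmox1, -1.026 to 0.376 for Hamp, -0.693 to 0.406 for Saa1, -4.433 to 0.029 for Tff3, -0.379 to 0.069 for Hspa5, -0.258 to 0.039 for Slco1a1 and -0.062 to 0.295 for Col3a1.

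Among the log2 fold changes of the genes printed, 5317 values under the alternatives kept direction and side of the threshold, 1181 kept direction only and lost the call (stricter thresholds included), 46 gained it and 31 turned sign. Of 47 gene lists, the count called moved by over 1.5 times in 39 without LFD replicates 1 and 3, in 18 without LFD replicate 3, in 8 of 46 under the correction and in 6 with DESeq2. Genes of a few counts, such as Cidea and Cyp2b13, are limited by depth.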
